A study of Homo sapiens with 8 samples.

Results

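Most ubiquitin-conjugating (E2) enzymes of human cells carry gene symbols that begin with UBE2. They were followed here across the myeloma lines MM1S and OPM1, each with and without Zalypsis. Members were the genes whose probe sets carry a single platform symbol beginning with UBE2, after UBE2C, UBE2T, UBE2L6 and 4 pseudogenes were left out. This gave 25 of the 19775 genes with such a probe set, read by 74 probe sets. Of the 25, 23 code for proteins and 2, UBE2D3-AS1 and UBE2E2-DT, are long noncoding RNAs that share the prefix only. The rule reads symbols, but the family was picked with its changes under Zalypsis in both lines known. The changes with treatment are therefore given as a description with no test of the family, and a p-value is given only for the untreated lines. Genes are still marked below as changed by a threshold on the adjusted p of each gene. With treatment, those marks describe the members and lend no support to the choice of the family. UBE2D1, UBE2D2, UBE2D3, UBE2L3, UBE2M and UBE2W were not analysed here, nor was UBE2V1, whose 4 probe sets carry several symbols.

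Zalypsis is a synthetic compound related to marine alkaloids that binds DNA. MM1S and OPM1 are established lines labelled as multiple myeloma, in which plasma cells grow as a tumour of the bone marrow. From each line there were 2 arrays of untreated cells (control) and 2 arrays of cells exposed to Zalypsis at 5 nM in culture and collected when 15 to 20% of them were dying. The labels give no vehicle for the controls, no time of exposure, and no word on separate cultures within a group. The p-values therefore rest on how far arrays of a group lie apart, possibly for technical reasons alone. For each gene the model mixes its own spread (4 residual degrees of freedom) with that of genes of similar brightness (17.0 prior degrees of freedom). RNA was read on HG-U133 Plus 2.0 arrays, on which each probe set reports 1 signal in arbitrary linear units, and the number of arrays limits the precision.

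Within a group, arrays correlated at 0.988 to 0.993 on the log2 scale. OPM1 control 1 had 3′ over 5′ signal ratios of 2.26 (GAPDH) and 5.80 (ACTB), and the remaining arrays had ratios of 0.963 to 1.06 and of 1.78 to 2.62. Probe sets for added poly-A control RNA read 1349 and 1862 on the treated OPM1 arrays and 299.7 and 448 on the OPM1 controls. On MM1S arrays they read 19.7 to 25.7, near the array medians of 23.8 to 24.8, which does not show that such RNA was added there. Where poly-A scaling is used below, only the OPM1 arrays were scaled. Of 8 plasma cell markers, 7 were above 4 times the array median on both MM1S control arrays and 5 on both OPM1 control arrays. SDC1, which encodes the plasma cell surface protein CD138, had a mean of 3194 in MM1S and 9.71 in OPM1 controls. Of the 8, CD38 alone was higher in OPM1 controls, with a mean of 489 against 54.2 in MM1S controls. XBP1 and JCHAIN were lower but still bright in OPM1 controls, at 1735 and 2031 against 4499 and 10641. Of 7 markers of B and pre-B cells, 0 passed that level in MM1S and 6 in OPM1 controls, with a summed signal of 68.7 to 90.9 and of 8240.3 to 9955. With Zalypsis that sum was 63.8 to 72.8 in MM1S and 3657 to 4754 in OPM1. The OPM1 arrays are therefore called OPM1-labelled cells, and the part of these values in any result below was not tested.

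Ubiquitin is attached to proteins by a relay of enzymes. An E1 enzyme activates ubiquitin and passes it to the active-site cysteine of an E2, and the E2, together with an E3 ligase that picks the substrate, transfers it to the target or to a growing chain. The E2 often sets how a chain is linked and so whether the tagged protein goes to the proteasome, to the endoplasmic reticulum (ER) degradation pathway or into signalling and DNA repair. Plasma cells and myeloma cells secrete much immunoglobulin and lean heavily on this system, which is why proteasome inhibitors are used against myeloma.

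Differences are given as log2 of the signal plus 32, ± the standard error of the limma model, with n = 2 arrays in each group; adding 32 makes the fold of a dim gene look smaller than it is. A gene was called higher or lower at a Benjamini-Hochberg adjusted p under 0.05 over all genes tested, and the words rose and fell are used only of called genes. Signals were compared within a probe set and never between genes. Of the 25 members, 22 were bright enough to be tested. UBE2U, an E2 known mainly from the urogenital tract, read 10.3 to 29.7 over the 8 arrays, UBE2E2-DT 2.63 to 14.8 and UBE2D3-AS1 7.45 to 86.3, and these 3 were left out as dim.

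In MM1S, 2 of 22 tested members rose and 11 fell with Zalypsis. Of all 11865 genes tested, 16.4% rose and 21.1% fell. In OPM1-labelled cells, 5 members rose and 14 fell, and of all genes 25.4% rose and 38.5% fell. The median change of the tested members was −0.36 in MM1S and −0.74 in OPM1-labelled cells, against 0.02 and −0.07 over all genes. Members that fell in both lines numbered 10, namely UBE2E1, UBE2E2, UBE2E3, UBE2F, UBE2G1, UBE2H, UBE2J1, UBE2O, UBE2R2 and UBE2V2. UBE2A and UBE2Q1 rose in both. UBE2B, UBE2S and UBE2Z rose in OPM1-labelled cells alone among the calls, UBE2G2, UBE2J2, UBE2K and UBE2Q2 fell there alone, UBE2QL1 fell in MM1S alone, and UBE2D4 and UBE2N were called in neither line. No member was called in opposite directions. A 2-fold change, the size the submitters' design text uses, was passed in MM1S by 2 falling and 0 rising members, and in OPM1-labelled cells by 10 falling and 3 rising members. Of all genes, 7.16% fell and 1.63% rose that far in MM1S, and 22.1% fell and 7.59% rose that far in OPM1-labelled cells. Left-out arrays moved the MM1S counts: 0 members rose without MM1S Zalypsis 1, 1 rose without MM1S control 2, and 7 fell without MM1S Zalypsis 2.

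The counts of rising members in OPM1-labelled cells depend on how arrays are scaled. With the OPM1 arrays scaled by their poly-A controls, the median change of all genes there moved from −0.07 to −1.70, 0 members were called higher and 21 were called lower. Of all genes 0.523% were then called higher and 93.0% lower, so the members' count is near that share. UBE2A, UBE2B, UBE2Q1, UBE2S and UBE2Z, which rose on the deposited scale, then had changes from −1.34 to −0.05. Scaling an array moves nearly all its genes alike, so the order of the members says nothing on which scale is right. Relative to the median of all genes, UBE2S lay 2.09 above it on the deposited scale and 1.65 above it with poly-A scaling, and UBE2A 1.15 and 0.74. Quantile normalization moved the median of all genes there to 0.11, with 6 members higher and 12 lower, against 39.1% and 32.6% of all genes. Which of these scales reflects RNA per cell was not tested, and in bulk RNA fewer cells of a type and less RNA per cell cannot be told apart.

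**Figure D1:**
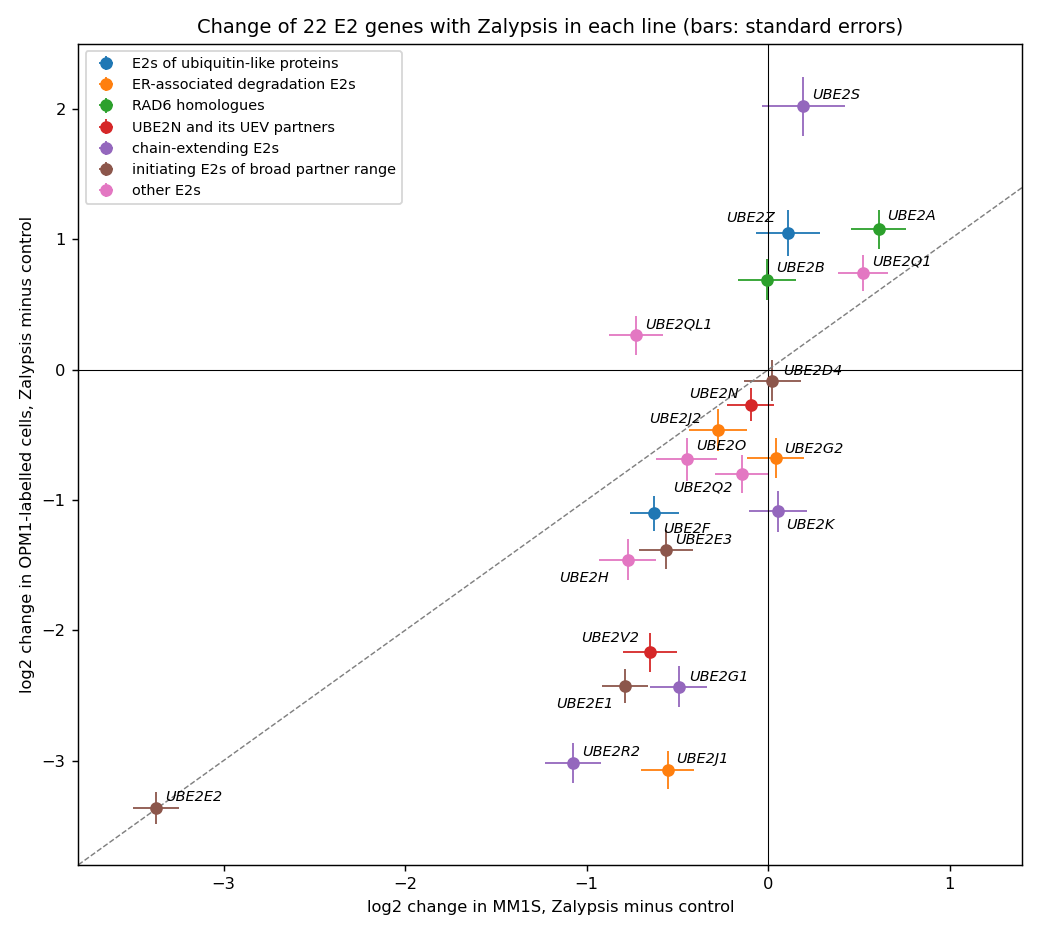
Log2 change with Zalypsis of the 22 tested E2 genes in MM1S (horizontal axis) and in OPM1-labelled cells (vertical axis), coloured by role, with bars of 1 standard error; the dashed line marks equal change. UBE2E2 lies on that line at −3.37 and −3.36, UBE2J1 and UBE2R2 lie far below it, and UBE2S lies highest at 2.02 in OPM1-labelled cells.

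The first group holds E2 enzymes that attach the first ubiquitin and work with many ligases, of which 4 were tested. Of these, 3 fell in each line and 0 rose. Of all genes tested, 16.4% rose and 21.1% fell in MM1S, and 25.4% rose and 38.5% fell in OPM1-labelled cells. Nothing particular to this or the following groups is read from their counts. The 3 that fell are UBE2E1, UBE2E2 and UBE2E3, close relatives that carry an N-terminal extension before the catalytic core.

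UBE2E2 fell in both lines to signals near background. Its signal was 498 and 448 on the MM1S control arrays, 17.5 and 15.9 with Zalypsis, 461 and 416 on the OPM1 control arrays, and 12.3 and 15.1 with Zalypsis. All 4 treated signals lay below the median of their array, which was 24.8 or less, and no treated array came near a control. The change was −3.37 ± 0.13 in MM1S and −3.36 ± 0.13 in OPM1-labelled cells. A treated signal this low has no clear zero, so the true fold may be larger than the scale shows. With similar controls and treated signals near background in both lines, the difference of 0.01 ± 0.18 between the responses cannot show that they were equal.

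UBE2E1 read 3685 and 3867 on MM1S controls, 2272 and 2075 on treated MM1S arrays, 2989.6 and 2925 on OPM1 controls and 516 and 531 on treated OPM1 arrays. Treated arrays were lower in both lines without overlap, and the gap was wider in OPM1-labelled cells. The change was −0.79 ± 0.13 in MM1S and −2.43 ± 0.13 in OPM1-labelled cells, a difference of −1.64 ± 0.18.

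UBE2E3 read 2835 and 2402, then 1841 and 1669.5 with Zalypsis in MM1S, and 752 and 805, then 264 and 295 in OPM1-labelled cells. It started lower in the OPM1-labelled cells and fell further there. The change was −0.57 ± 0.15 in MM1S and −1.38 ± 0.15 in OPM1-labelled cells, a difference of −0.82 ± 0.21. Without MM1S Zalypsis 2 the MM1S change was −0.50 and lost its call. UBE2D4, a relative of the broadly acting UBE2D enzymes, read 259 and 192 on MM1S controls and 551 and 510.2 on OPM1 controls, with means after Zalypsis of 228 ± 30.7 (SD, n = 2) and 498 ± 27.9. Its treated and control arrays overlapped in both lines, with changes of 0.02 ± 0.16 and −0.09 ± 0.16.

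The 3 UBE2E genes moved together in direction, and the bases before their starts are shown so that their letters can be compared with those of UBE2A and UBE2S, which rose. Each sequence is the 250 bases upstream of the RefSeq gene start on GRCh38.p14, written 5′ to 3′ on the strand of the gene, in lower case. Capitals mark matches on either strand to any of 5 motifs. The GC box was searched as GGGCGG and the CCAAT box as CCAAT. The TATA box was searched as TATAAA. The E-box was searched as CACGTG. The core of the cyclic AMP response element (CRE) was searched as TGACGT. None of these letter strings contains another. UBE2E2 lies at chr3:23202848-23203097 (+), UBE2E1 at chr3:23805705-23805954 (+), UBE2E3 at chr2:180980110-180980359 (+), UBE2A at chrX:119574313-119574562 (+) and UBE2S at chr19:55407789-55408038 (−).
UBE2E2: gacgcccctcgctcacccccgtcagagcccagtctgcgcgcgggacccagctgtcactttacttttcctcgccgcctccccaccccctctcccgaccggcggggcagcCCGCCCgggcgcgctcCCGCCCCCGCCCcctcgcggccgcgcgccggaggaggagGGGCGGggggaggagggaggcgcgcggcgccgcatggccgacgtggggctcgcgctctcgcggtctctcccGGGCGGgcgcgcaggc
UBE2E1: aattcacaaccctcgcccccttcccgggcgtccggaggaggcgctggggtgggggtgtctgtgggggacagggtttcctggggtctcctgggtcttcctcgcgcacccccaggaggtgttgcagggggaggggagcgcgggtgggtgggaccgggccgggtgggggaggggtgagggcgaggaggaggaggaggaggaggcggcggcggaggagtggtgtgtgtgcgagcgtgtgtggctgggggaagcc
UBE2E3: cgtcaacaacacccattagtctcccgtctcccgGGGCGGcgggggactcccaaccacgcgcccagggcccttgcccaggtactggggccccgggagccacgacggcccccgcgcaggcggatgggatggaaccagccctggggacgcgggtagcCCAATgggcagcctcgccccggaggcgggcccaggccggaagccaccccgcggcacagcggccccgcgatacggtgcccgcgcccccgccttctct
UBE2A: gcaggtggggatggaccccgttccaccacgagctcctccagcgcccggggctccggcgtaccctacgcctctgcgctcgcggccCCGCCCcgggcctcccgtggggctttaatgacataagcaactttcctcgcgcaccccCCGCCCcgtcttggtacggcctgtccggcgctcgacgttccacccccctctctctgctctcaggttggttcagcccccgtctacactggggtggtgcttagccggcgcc
UBE2S: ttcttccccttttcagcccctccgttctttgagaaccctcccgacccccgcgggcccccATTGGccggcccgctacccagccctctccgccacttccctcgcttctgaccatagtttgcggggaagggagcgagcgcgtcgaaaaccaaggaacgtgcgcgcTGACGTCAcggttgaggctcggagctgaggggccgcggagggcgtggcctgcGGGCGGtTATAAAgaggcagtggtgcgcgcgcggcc

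The window of UBE2E2 holds 5 GC boxes, that of UBE2E3 1 GC box and 1 CCAAT box, and that of UBE2E1 0 of the 5 motifs. The window of UBE2A holds 2 GC boxes. That of UBE2S holds a GC box, a CCAAT box, a TATA box and a TGACGT that is read on both strands because it lies in the palindrome TGACGTCA. G and C made up 80.4% of the UBE2E2 window, 72.4% of that of UBE2E1, 75.6% of that of UBE2E3, 70.0% of that of UBE2A and 67.6% of that of UBE2S, against a median of 62% over 15840 protein-coding genes. Windows were at hand for 19 protein-coding members, without UBE2B, UBE2H, UBE2Q1 and UBE2V2. A GC box was found in 15 of the 19 and in 55.8% of all windows, a CCAAT box in 5 and in 34.5%, and a TATA box in 1 (UBE2S) and in 9.36%. An E-box was found in 0 and in 7.80%, and a CRE core in 3 and in 8.66%. Besides UBE2S, the CRE core was found in UBE2J1 and UBE2O, which fell in both lines. UBE2E2-DT starts 105 bases from UBE2E2 on the opposite strand, and its probe set read 2.63 to 14.8 in all groups.

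The second group extends chains, and all 4 of its members were tested. In MM1S 2 fell and 0 rose, and in OPM1-labelled cells 3 fell and 1 rose. UBE2R2, which extends chains on substrates of cullin-RING ligases, read 951 and 733 on MM1S controls, 411 and 350.0 on treated MM1S arrays, 866 and 854 on OPM1 controls and 79.6 and 76.6 on treated OPM1 arrays. The OPM1 controls lay between the MM1S controls, and the treated OPM1 arrays were the lowest of all. The change was −1.08 ± 0.16 in MM1S and −3.02 ± 0.16 in OPM1-labelled cells, a difference of −1.94 ± 0.22.

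UBE2G1, which works with the same class of ligases, read 790.1 and 753, then 539 and 538 in MM1S, and 1872 and 1522, then 259 and 316 in OPM1-labelled cells. It started higher in the OPM1-labelled cells and ended lower. The change was −0.49 ± 0.16 in MM1S, a call lost without MM1S control 1 (−0.46), MM1S Zalypsis 1 (−0.50) or MM1S Zalypsis 2 (−0.49), and −2.43 ± 0.16 in OPM1-labelled cells, a difference of −1.94 ± 0.22. UBE2K, which builds chains that mark proteins for the proteasome, had means of 740.2 ± 104 (SD, n = 2) and 765 ± 44.5 in MM1S and of 871 ± 107 and 393 ± 49.1 in OPM1-labelled cells, with changes of 0.05 ± 0.16 and −1.09 ± 0.16.

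UBE2S, which extends chains for the anaphase-promoting complex during mitosis, rose in OPM1-labelled cells on the deposited scale. It read 2379 and 1878 on MM1S controls and 2510.0 and 2339 with Zalypsis, where the arrays overlapped, and 644 and 1476 on OPM1 controls and 3768 and 4402 with Zalypsis. The OPM1 control arrays lay far apart, the lower being OPM1 control 1, the array with the high 3′ to 5′ ratios. The change was 0.19 ± 0.23 in MM1S and 2.02 ± 0.23 in OPM1-labelled cells, a difference of 1.83 ± 0.32. Without OPM1 control 1 the OPM1 change was 1.44 and the difference 1.25, both still called, and with poly-A scaling the OPM1 change was −0.05. UBE2C, which starts the chains that UBE2S extends and was left out by the rule, rose by 2.03 ± 0.14 in OPM1-labelled cells, with 0.35 ± 0.14 in MM1S.

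**Figure D2:**
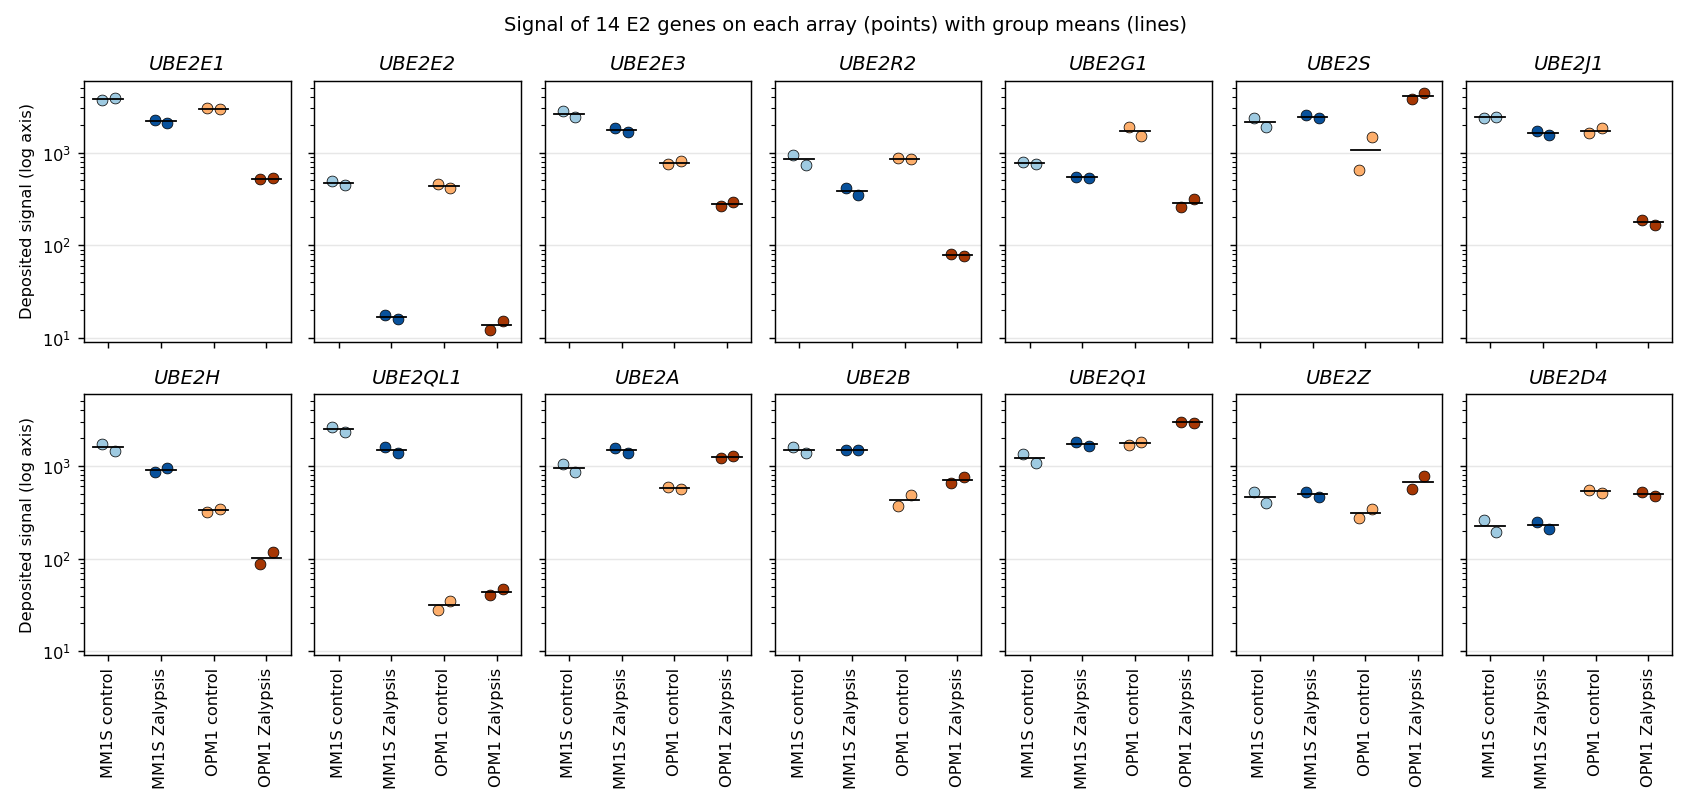
Deposited signal (vertical log axis, arbitrary units) of 14 E2 genes on each of the 8 arrays, with 2 points and their mean (line) for each group. UBE2E2 drops from 416 to 498 on the controls to 12.3 to 17.5 on the treated arrays of both lines, and the OPM1 controls of UBE2S are spread from 644 to 1476. The height of a panel cannot be compared between genes.

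The third group serves degradation of proteins from the ER, where misfolded secretory proteins are pulled back into the cytosol and tagged. In MM1S 1 of 3 fell, and in OPM1-labelled cells all 3 fell on their brightest probe set, but UBE2J2 and UBE2G2 lost the call with the mean of all their sets. UBE2J1, which is anchored in the ER membrane, read 2366 and 2426 on MM1S controls, 1693 and 1551 with Zalypsis, 1616 and 1839 on OPM1 controls and 189 and 165 with Zalypsis. The treated OPM1 arrays stood far below all others. The change was −0.55 ± 0.15 in MM1S and −3.07 ± 0.15 in OPM1-labelled cells, a difference of −2.52 ± 0.21. The MM1S call was lost without MM1S Zalypsis 2, at −0.49.

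UBE2J2, also anchored in the ER membrane, had means of 931 ± 166 and 756 ± 17.2 in MM1S and of 1280.4 ± 79.2 and 925 ± 150.5 in OPM1-labelled cells. Its changes were −0.28 ± 0.16, not called, and −0.46 ± 0.16, a call lost without OPM1 control 1 (−0.40) or OPM1 Zalypsis 1 (−0.30). The latter was −0.09 with the mean of its sets, −0.25 with quantile normalization and 0.21 without sets ending in _s_at or _x_at, none of them called. UBE2G2, which works with ligases of the ER membrane, had means of 858 ± 134 and 881 ± 119 in MM1S and of 878 ± 12.8 and 537 ± 28 in OPM1-labelled cells. Its changes were 0.04 ± 0.16 and −0.68 ± 0.16, a difference of −0.72 ± 0.22. Its sets ran from −0.68 to 0.44 in OPM1-labelled cells, and their mean gave an OPM1 change of −0.22 and a difference of −0.23, neither called.

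UBE2N builds chains used in signalling and DNA repair, and does so only with a catalytically inactive partner such as UBE2V2. On its brightest probe set, whose name ends in _x_at and which may read related transcripts, UBE2N was called in neither line: its changes were −0.10 ± 0.13 in MM1S, where the arrays overlapped, and −0.27 ± 0.13 in OPM1-labelled cells, where the controls read 2308 and 2549 and the treated arrays 1999.7 and 2014. The OPM1 change was called with the mean of its sets (−0.43), without OPM1 control 1 (−0.34) and with the replicate number as a block, and on the set without that ending UBE2N was called lower in MM1S (−0.49) and in OPM1-labelled cells (−1.28). Its partner UBE2V2 read 1271 and 1142, then 822 and 693 in MM1S, and 1377 and 1308, then 270.2 and 277 in OPM1-labelled cells. No treated array of UBE2V2 reached a control, and the change was −0.65 ± 0.15 and −2.17 ± 0.15, a difference of −1.52 ± 0.21. Its other sets were dimmer (signal levels of 38.3 and 39.3) and changed by −0.62 and −0.83 in MM1S. In OPM1-labelled cells these sets changed by −0.88 and −0.81, with differences between the responses of −0.26 and 0.03.

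UBE2A and UBE2B are the human homologues of yeast RAD6. They work with the ligase RAD18 in tolerance of DNA damage and with RNF20 and RNF40 in ubiquitination of histone H2B. UBE2A read 1053 and 858 on MM1S controls, 1571 and 1367 with Zalypsis, 592 and 566 on OPM1 controls and 1225 and 1292 with Zalypsis. Treated arrays were above controls in both lines, with a change of 0.61 ± 0.15 in MM1S and 1.08 ± 0.15 in OPM1-labelled cells, though in the latter it was −0.96 with poly-A scaling. The MM1S call was lost without MM1S Zalypsis 1, at 0.51. The difference between the lines, 0.47 ± 0.21, was not called, but it was with quantile normalization (0.62), without MM1S control 2 (0.61) and with the replicate number as a block.

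UBE2B read 1618 and 1379, then 1495 and 1477 in MM1S, where the arrays overlapped, and 370.2 and 489, then 661 and 757 in OPM1-labelled cells. Its changes were −0.01 ± 0.16 and 0.69 ± 0.16, the latter −1.30 with poly-A scaling. Its probe sets disagree, as described further on. The partner genes RAD18, RNF20 and RNF40 are among the RING ligases counted at the end.

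Of the E2 enzymes that serve ubiquitin-like proteins or a second E1, UBE2F and UBE2Z were tested. UBE2F, which conjugates NEDD8 to cullins, had means of 249.8 ± 3.13 and 150.5 ± 10.7 in MM1S and of 320.1 ± 20.9 and 132 ± 16.6 in OPM1-labelled cells. It fell in both, with changes of −0.63 ± 0.14 and −1.10 ± 0.14 and no overlap of arrays. UBE2Z, which is loaded by the E1 enzyme UBA6, read 523 and 396, then 525 and 463 in MM1S, where arrays overlapped, and 273 and 341, then 568 and 778 in OPM1-labelled cells. Its changes were 0.11 ± 0.18 and 1.05 ± 0.18, the latter −0.92 with poly-A scaling. UBA6 itself fell in both lines, with a change of −0.60 in MM1S and −2.19 in OPM1-labelled cells.

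Among the remaining 5 tested E2 genes 1 rose and 3 fell in each line. UBE2H, partner of the CTLH ligase complex, read 1709 and 1456, then 866 and 956 in MM1S, and 321 and 346, then 86.7 and 117 in OPM1-labelled cells. On this set all treated arrays were below the controls of their line, with changes of −0.77 ± 0.16 and −1.46 ± 0.16. The bright sets of UBE2H ran from −0.99 to −0.24 in MM1S and from −1.88 to −0.29 in OPM1-labelled cells. The difference between the responses was −0.69 on its brightest set, and −0.90, −0.50, 0.14 and 0.42 on its other bright sets. UBE2O, a large E2 that also acts as a ligase, had means of 112 ± 6.24 and 74.5 ± 17.3 in MM1S and of 119 ± 2.90 and 64.4 ± 31.4 in OPM1-labelled cells, with changes of −0.45 ± 0.17 and −0.69 ± 0.17. Its MM1S call was lost without MM1S Zalypsis 2 (−0.28), MM1S control 1 (−0.40) or MM1S control 2 (−0.49), and its OPM1 call without OPM1 Zalypsis 2 (−0.35).

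The Q subfamily had 3 tested members. UBE2Q1 read 1332 and 1078, then 1823 and 1650.2 in MM1S, and 1690.5 and 1822, then 2991 and 2929 in OPM1-labelled cells, with every treated array above its controls. The change was 0.52 ± 0.14 and 0.74 ± 0.14, the latter −1.34 with poly-A scaling, and the MM1S call was lost without MM1S Zalypsis 1 (0.45) or MM1S control 2 (0.37). UBE2Q2 had means of 556 ± 20.7 and 499 ± 15.3 in MM1S and of 423 ± 41.6 and 229 ± 6.04 in OPM1-labelled cells, with changes of −0.15 ± 0.15 and −0.80 ± 0.15. UBE2QL1, a Q-like E2, read 2625 and 2342, then 1595 and 1378 in MM1S, but 27.8 and 34.9, then 40.7 and 47.3 in OPM1-labelled cells, near the array median. Its change was −0.73 ± 0.15 in MM1S and 0.26 ± 0.15 in OPM1-labelled cells, not called there.

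The responses of the lines were compared by the interaction term, OPM1 change minus MM1S change. It was called lower for 11 of 22 members and higher for 4, against 31.2% and 15.3% of all genes. The 11 were UBE2J1, UBE2R2, UBE2G1, UBE2E1, UBE2V2, UBE2K, UBE2E3, UBE2G2, UBE2H, UBE2Q2 and UBE2F, from −2.52 to −0.47, and the 4 were UBE2S, UBE2QL1, UBE2Z and UBE2B, from 1.83 to 0.70. UBE2QL1 was near the array median in OPM1-labelled cells with and without Zalypsis, where a fall would be hard to measure, so its difference of 0.99 does not show that it responded otherwise there. The median of the 22 differences was −0.36, and −0.13 over all genes. The difference of UBE2F was lost without OPM1 Zalypsis 1, OPM1 control 2 or any 1 of the 4 MM1S arrays, with values from −0.53 to −0.37. That of UBE2B was lost without OPM1 control 1 (0.51) or OPM1 Zalypsis 2 (0.61), and that of UBE2G2 without MM1S Zalypsis 1 (−0.58) or OPM1 Zalypsis 2 (−0.67). That of UBE2H was lost without MM1S Zalypsis 2 (−0.62), MM1S control 2 (−0.57) or OPM1 Zalypsis 1 (−0.52), and that of UBE2Q2 without MM1S Zalypsis 1 (−0.62) or OPM1 control 1 (−0.56). With quantile normalization the differences of UBE2H (−0.39), UBE2Q2 (−0.36) and UBE2F (−0.25) were not called, and that of UBE2A (0.62) was called higher. With poly-A scaling of the OPM1 arrays, 20 members were called lower and 0 higher, against 91.9% and 0.952% of all genes, and all 4 of the higher ones turned below 0.

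The family's changes followed the length of the genes. The span from RefSeq start to end on GRCh38.p14 ran from 8.0 kb for UBE2S to 388.8 kb for UBE2E2, with a median of 52.7 kb over the 22 members and 30.0 kb over the 10981 protein-coding genes tested. Across the 22 genes, Spearman's rho between span and change was −0.784 in MM1S and −0.820 in OPM1-labelled cells. Pearson's r with the logarithm of the span was −0.807 and −0.802. Without UBE2E2, the longest member, rho was −0.752 and −0.794. Over all protein-coding genes tested, rho was −0.505 and −0.488. These are correlations across genes measured on the same arrays, genes are not independent replicates, and no p is given.

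The 10 members that fell in both lines spanned 26.1 to 388.8 kb, with a median of 84.4 kb, and the 5 that rose in 1 line or both spanned 8.0 to 20.7 kb, with a median of 10.1 kb. At a limit of 60 kb, set after the values were seen, 9 of 10 longer members fell in MM1S, 10 fell in OPM1-labelled cells and 0 rose in either line. Of the 12 shorter members, 2 fell and 2 rose in MM1S, and 4 fell and 5 rose in OPM1-labelled cells. Of all tested protein-coding genes over 60 kb, 54.8% fell and 4.34% rose in MM1S and 66.0% fell and 7.61% rose in OPM1-labelled cells. Of the shorter ones, 9.09% fell and 21.1% rose in MM1S and 30.0% fell and 31.8% rose in OPM1-labelled cells. UBE2J1 stands off the pattern: at 26.1 kb it changed by −3.07 in OPM1-labelled cells. UBE2K, at 84.7 kb, changed by 0.05 in MM1S on its brightest probe set. With poly-A scaling rho over the 22 members in OPM1-labelled cells was −0.737, and all members then had changes below 0. That scaling moves nearly all genes of an array alike and largely keeps their order, so it could not test this pattern.

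**Figure D3:**
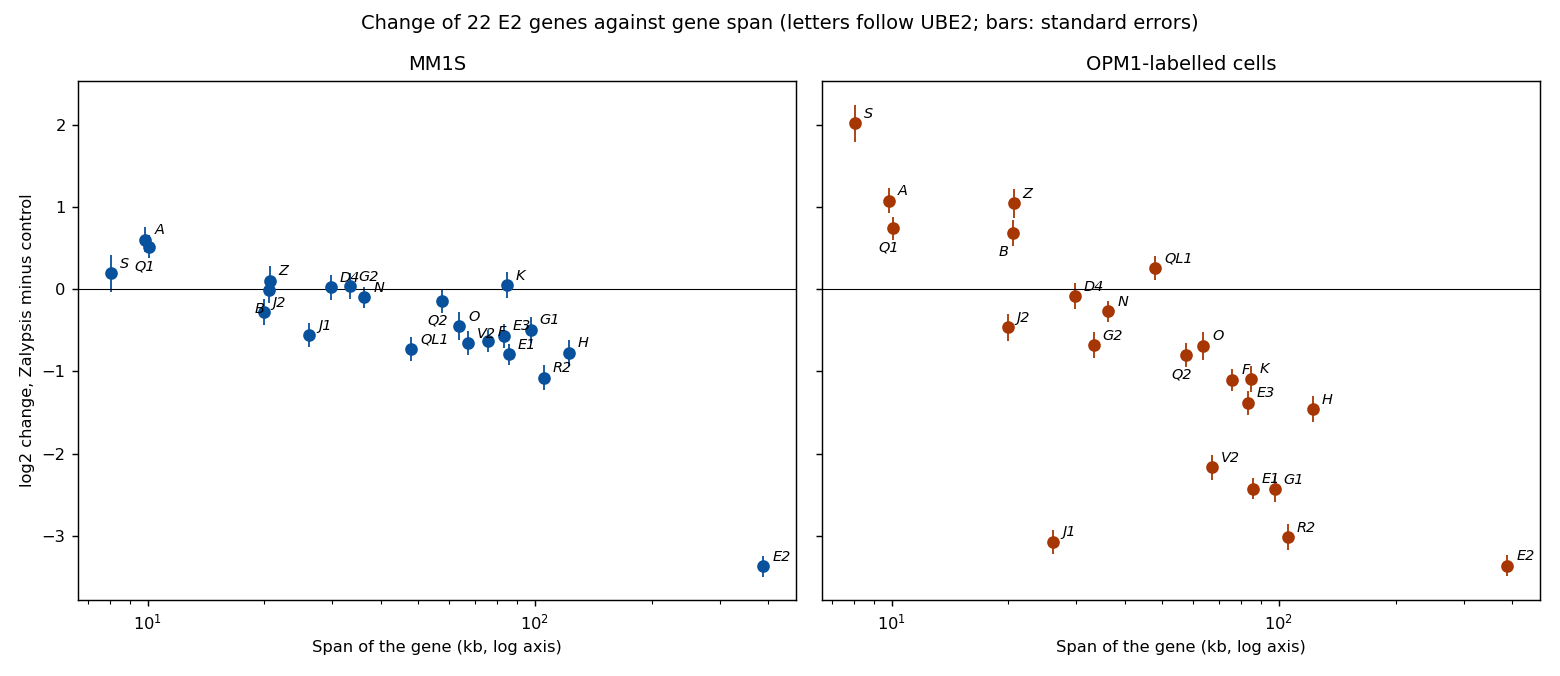
Log2 change with Zalypsis (vertical axis, bars of 1 standard error) against the span of the gene in kb (horizontal log axis) for the 22 tested E2 genes in MM1S and in OPM1-labelled cells; letters follow UBE2. Members over 60 kb lie at or below 0.05 in MM1S and at or below −0.69 in OPM1-labelled cells, and UBE2J1 stands apart at 26.1 kb.

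Several members have more than 1 probe set, and each may read other transcript ends. Of the 74 probe sets 61 were bright enough to compare, and 16 members had at least 2 such sets. In MM1S the changes of a gene's sets differed by over 1 (log2) for 3 members and in OPM1-labelled cells for 7. In UBE2B the sets pointed both ways: from −0.89 to 0.84 in MM1S and from −1.64 to 1.30 in OPM1-labelled cells. The direction given above for UBE2B is that of its brightest set, and the mean over its sets was −0.16 in OPM1-labelled cells.

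For UBE2J1 the changes ran from −1.09 to −0.08 in MM1S and from −4.35 to −0.52 in OPM1-labelled cells, with the weakest on the dimmest set. For UBE2K they ran from −0.99 to 0.05 and from −3.36 to −1.09. Averaged over its sets UBE2K changed by −0.58 in MM1S, which was called. UBE2N sets gave −0.49 to −0.10 in MM1S and −1.28 to 0.28 in OPM1-labelled cells. UBE2Q1 sets gave −0.13 to 0.52 and −0.11 to 0.74, with the highest value on the brightest set in each line. Both bright sets of UBE2A rose, with 0.61 and 0.74 in MM1S and 1.08 and 1.14 in OPM1-labelled cells. All 3 sets of UBE2Z lay between 1.05 and 1.24 in OPM1-labelled cells, but in MM1S they ran from 0.11 to 0.75. The difference between the responses was 0.94 on the brightest set of UBE2Z and 0.92 and 0.49 on the others. The call of that difference did not hold under every alternative, also with poly-A scaling left aside. UBE2E1, UBE2E2, UBE2E3, UBE2S, UBE2O and UBE2Q2 have a single bright set, so no second set could be compared.

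**Figure D4:**
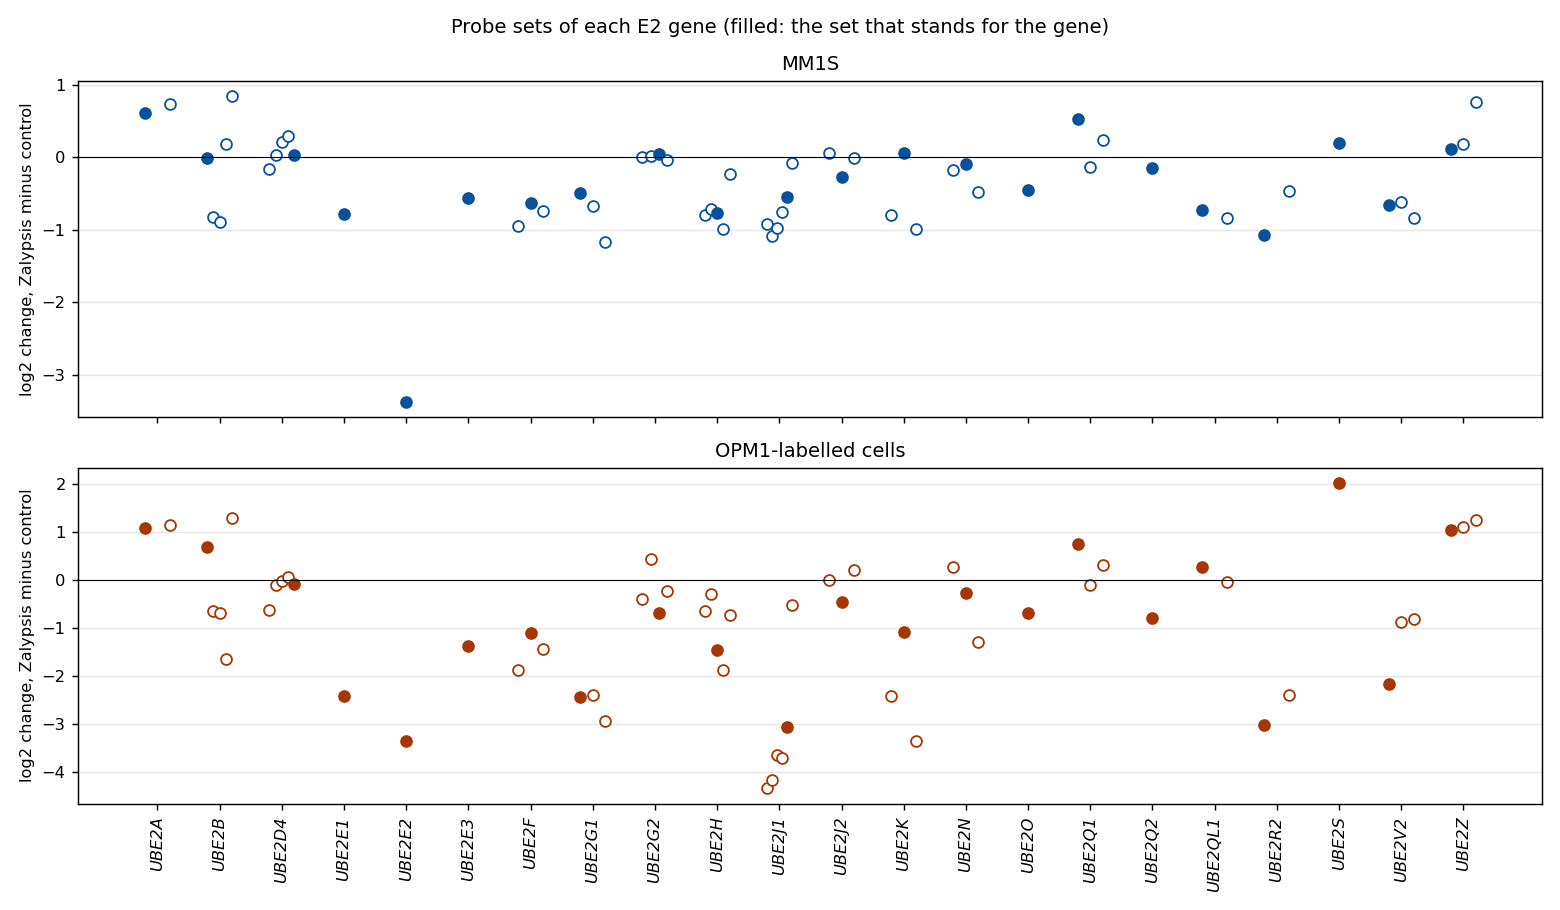
Log2 change with Zalypsis of every bright probe set (points) of each tested E2 gene in MM1S and in OPM1-labelled cells; the filled point is the brightest set, which stands for the gene. The sets of UBE2B spread from −1.64 to 1.30 in OPM1-labelled cells, where those of UBE2A and UBE2Z lie close together above 0.

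The untreated lines were also compared, a contrast that asks how the family differs before any drug; line and handling of the lines cannot be told apart. Of the 22 tested members 5 were higher in OPM1-labelled cells and 10 were lower, at a limma adjusted p under 0.05, against 28.6% and 35.2% of all genes. Without MM1S control 2 the number higher was 3. The median difference was −0.05 for the members and −0.05 for all genes.

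UBE2QL1 read 2625 and 2342 in MM1S and 27.8 and 34.9 in OPM1-labelled cells, a difference of −5.31 ± 0.15 (limma adjusted p = 4.8e-18). The OPM1 signals lie near the array median, so the size of this difference is limited by background, and the other set of the gene gave −4.37. UBE2H differed by −2.14 ± 0.16, at 321 and 346 against 1709 and 1456 (limma adjusted p = 8.8e-11). With the mean of its sets UBE2H differed by −1.11. UBE2B was at −1.74 ± 0.16 (limma adjusted p = 3.2e-09), but its bright sets ran from −2.03 to 1.63 and the mean of all its sets was −0.66, still called. UBE2E3 was at −1.71 ± 0.15 (limma adjusted p = 1.4e-09). In these genes, on the sets that stand for them, no OPM1 control reached an MM1S control.

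UBE2S differed by −1.09 ± 0.23 (limma adjusted p = 0.00026), but by −0.51 without OPM1 control 1 and −1.67 without OPM1 control 2, so the size rests on which of these arrays is kept. UBE2A was at −0.69 ± 0.15 (limma adjusted p = 0.00042). UBE2Z (−0.53 ± 0.18), UBE2J1 (−0.47 ± 0.15), UBE2Q2 (−0.37 ± 0.15) and UBE2E1 (−0.35 ± 0.13) were also lower, and each lost its call without some array. For UBE2Z this was MM1S control 1 (−0.35) or OPM1 control 1 (−0.39), for UBE2J1 OPM1 control 1 (−0.38), for UBE2Q2 MM1S control 1 (−0.34) or OPM1 control 2 (−0.28), and for UBE2E1 MM1S control 2 (−0.31) or OPM1 control 2 (−0.33).

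UBE2G1 was higher in OPM1-labelled cells by 1.10 ± 0.16 (limma adjusted p = 2.4e-06), with 0.41 and 0.00 on its other sets and 0.50 for their mean, still called. UBE2Q1 was higher by 0.54 ± 0.14 (limma adjusted p = 0.0019). UBE2D4 was higher by 1.14 ± 0.16 (limma adjusted p = 1.7e-06), but the mean over its 5 bright probe sets differed by 0.02 and was not called. UBE2J2 (0.46 ± 0.16) and UBE2F (0.32 ± 0.14) were also higher. The call of UBE2J2 was lost without MM1S control 2 (0.28) or OPM1 control 1 (0.39), and that of UBE2F without MM1S control 1 (0.31), MM1S control 2 (0.33) or OPM1 control 2 (0.26). UBE2E2, UBE2G2, UBE2K, UBE2N and UBE2R2 had overlapping controls, and with UBE2O and UBE2V2, which did not overlap, they had differences between −0.10 and 0.23 that were not called.

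**Figure D5:**
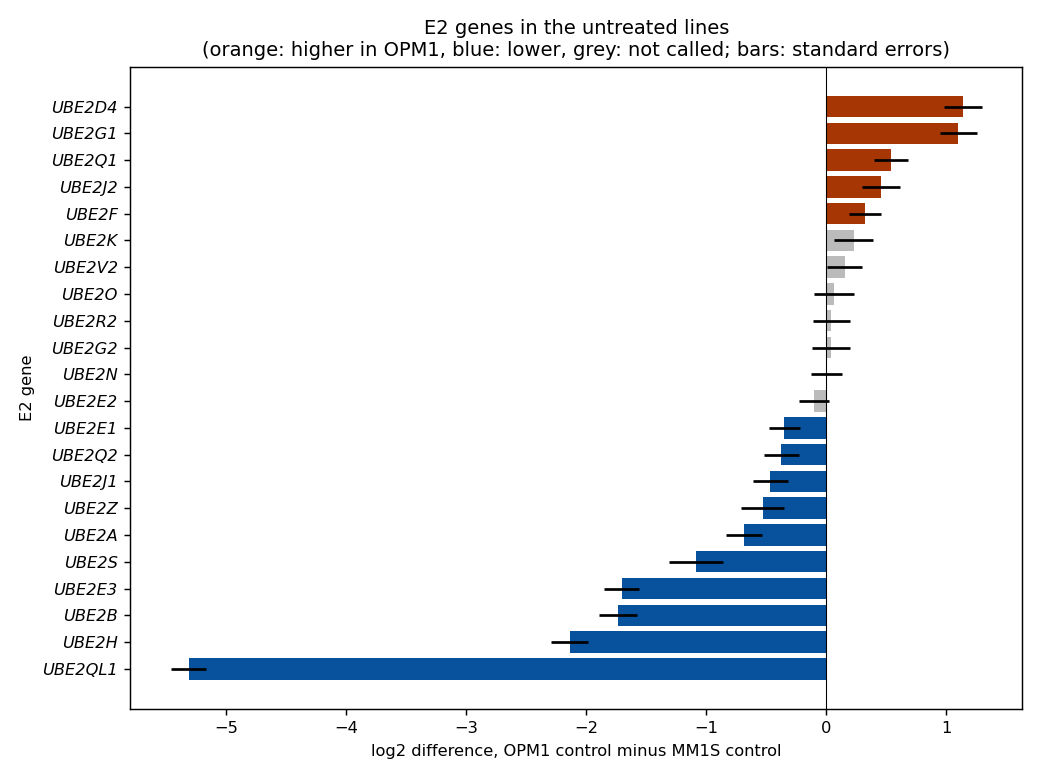
Log2 difference between untreated OPM1-labelled cells and untreated MM1S (horizontal axis) for the 22 tested E2 genes, with bars of 1 standard error and colours for the call. UBE2QL1 stands at −5.31, and UBE2D4 and UBE2G1 stand highest at 1.14 and 1.10.

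The other steps of the relay were described from lists of genes chosen by their role. Their counts stand beside the shares of all genes given above, 16.4% higher and 21.1% lower in MM1S and 25.4% and 38.5% in OPM1-labelled cells, and nothing particular to a list is read from them. Of 8 tested genes for ubiquitin and its relatives, 2 rose and 1 fell in MM1S, and 2 rose and 2 fell in OPM1-labelled cells. ISG15 (0.70) and ATG12 (0.49) rose and URM1 (−0.57) fell in MM1S. ATG12 (1.48) and FAU (0.35) rose and UBB (−0.68), a polyubiquitin gene, and SUMO3 (−0.47) fell in OPM1-labelled cells. Of 7 tested E1 and other activating enzymes, 0 rose and 3 fell in MM1S, and 1 rose and 4 fell in OPM1-labelled cells. The falls in MM1S were ATG7 (−0.76), UBA6 (−0.60) and SAE1 (−0.51), and in OPM1-labelled cells SAE1 (−2.32), NAE1 (−2.22), UBA6 (−2.19) and UBA3 (−0.93). SAE1 is a subunit of the SUMO E1, and NAE1 and UBA3 form the NEDD8 E1.

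Of 9 tested E2 and E2-like genes with other names, 1 rose and 1 fell in MM1S and 2 rose and 3 fell in OPM1-labelled cells. BIRC6, a giant E2 that guards against apoptosis, fell in both lines, with changes of −2.55 and −3.09, while RWDD3 rose by 0.63 and 0.75. ATG3, the E2-like enzyme of autophagy, changed by −1.14 and TSG101 by −0.72 in OPM1-labelled cells, both called.

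Of 25 tested HECT ligases, which take ubiquitin from the E2 onto their own cysteine, 16 fell and 1 rose in MM1S, and 17 fell and 1 rose in OPM1-labelled cells, with medians of −0.62 and −1.12. HERC1 (−1.97), WWP2 (−1.88), HERC2 (−1.56) and UBE3C (−1.17) were among those that fell in MM1S, and HERC1 (−3.30), TRIP12 (−3.22), HERC2 (−2.67) and UBE3A (−2.45) in OPM1-labelled cells. Of 11 tested RBR ligases, which likewise form a thioester with ubiquitin, 6 fell and 1 rose in MM1S and 7 fell and 1 rose in OPM1-labelled cells. RNF216 (−1.67), ANKIB1 (−1.33) and ARIH1 (−1.09) fell and RNF19B (1.34) rose in MM1S, and RNF144B (−3.75), RNF216 (−2.98), ARIH1 (−2.39) and ANKIB1 (−2.0) fell in OPM1-labelled cells.

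Of 21 tested RING ligases that work with a named E2, 4 rose and 6 fell in MM1S, with a median of −0.08, and 8 rose and 11 fell in OPM1-labelled cells, with a median of −0.59. UBR1 (−1.46), UBR2 (−1.19), UBR4 (−0.89) and HLTF (−0.84) changed most in MM1S, and UBR4 (−2.67), UBR1 (−2.51), UBR2 (−2.02) and SHPRH (−1.59) in OPM1-labelled cells, all called. UBR1, UBR2 and UBR4 recognise N-terminal degradation signals together with UBE2A or UBE2B. In OPM1-labelled cells 0 genes of these 6 lists were called higher with poly-A scaling, against 0.523% of all genes.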

How the data were processed

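The authors deposited 1 linear intensity per probe set and array, made with dChip per the series' design text. Its normalization and version are not given in the sources read. Of 54675 probe sets, 41091 carried 1 symbol. The brightest set by mean log2 stood for a gene, and the 40% dimmest genes, below a signal of 27.3, were left out. Values were turned into log2(value + 32) and fitted with limma 3.58.1 in R 4.3.3 (eBayes with a trend, 1 mean per group, 4 residual degrees of freedom and a prior of 17.0), and p-values were adjusted by Benjamini-Hochberg within a comparison. The fit was tested on simulated data. Spans and promoters come from RefSeq tables of GRCh38.p14, in which all 25 symbols matched. The members, the lists of pathway genes and the alternatives were chosen with earlier results of these data known. Per-array values are given for UBE2E1 to UBE2E3 and for the 3 members with the largest change each way in each comparison, and other members were added for their role. Of each list, up to 4 called genes with the largest changes are named.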

Additional observations from a re-analysis of the deposited data

Results flagged for a closer look

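For 15 members the change with Zalypsis was called different between the lines in limma's interaction term (OPM1 change minus MM1S change, log2). That call, in either direction, is what singled them out for a second look. It was below 0 for UBE2J1 (−2.52), UBE2R2 (−1.94), UBE2G1 (−1.94), UBE2E1 (−1.64), UBE2V2 (−1.52), UBE2K (−1.14), UBE2E3 (−0.82), UBE2G2 (−0.72), UBE2H (−0.69), UBE2Q2 (−0.65) and UBE2F (−0.47). It was above 0 for UBE2S (1.83), UBE2QL1 (0.99), UBE2Z (0.94) and UBE2B (0.70), and for these 4 it was below 0 when the OPM1 arrays were scaled by their poly-A controls. UBE2QL1 was near the array median on all OPM1 arrays, where a fall would be hard to measure. UBE2H, UBE2Q2 and UBE2F lost the call with quantile normalization. Groups of 2 arrays allow no test for a single outlying array.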

How the results depend on the processing

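Calls that held under every alternative that tested the gene numbered 7 of 13 in MM1S and 11 of 19 in OPM1-labelled cells (14 without poly-A scaling). They numbered 7 of 15 for the difference of responses (9 without poly-A scaling) and 8 of 15 between the untreated lines. Poly-A scaling was applied to the OPM1 arrays only and lowered nearly all their changes, so a fall could hardly be lost under it. All 11 held OPM1 calls are falls, and all 7 held differences are below 0. The share of calls that held over all genes is not given, so nothing particular to the members is read from these counts. UBE2A, UBE2E3 and UBE2S have only sets ending in _s_at, so the alternative without such sets did not test them. Counted as held all the same were UBE2E3 in OPM1-labelled cells and for the difference, and UBE2A, UBE2E3 and UBE2S between the untreated lines. Leaving poly-A scaling aside, UBE2A and UBE2S in OPM1-labelled cells and UBE2S for the difference were counted too. Among the calls that held in both lines were the falls of UBE2E1, UBE2E2, UBE2F, UBE2H, UBE2R2 and UBE2V2.

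With poly-A scaling the OPM1 changes were −0.96 for UBE2A, −1.30 for UBE2B, −1.34 for UBE2Q1, −0.86 for UBE2QL1, −0.049 for UBE2S and −0.92 for UBE2Z, so 0 members were higher. The differences of responses were −1.56 for UBE2A, −1.29 for UBE2B, −1.24 for UBE2E2, −1.86 for UBE2Q1, −0.13 for UBE2QL1, −0.24 for UBE2S and −1.02 for UBE2Z, with 0 higher and 20 lower. With the mean of all probe sets, 1 member rose in MM1S, UBE2K was at −0.58 there, UBE2B was at −0.16 in OPM1-labelled cells and −0.059 for the difference, and UBE2V2 was at −0.31 between the untreated lines. Without probe sets ending in _s_at or _x_at, UBE2B was at 0.84, UBE2K at −0.99 and UBE2Q1 at −0.13 in MM1S. UBE2J2 was then at 0.21 and UBE2Q1 at −0.11 in OPM1-labelled cells with 2 members higher, the difference had 2 higher members, and untreated OPM1-labelled cells had 5 lower ones, with UBE2J2 at −0.21 and UBE2Z at 0.011. That alternative tests fewer members, 19 of 22. Otherwise the cause was not tested.

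Leaving out 1 array at a time gave 0 to 2 rising and 7 to 10 falling members in MM1S, and 3 to 4 higher members between the untreated lines. The numbers on the labels may not pair arrays: with the replicate block (arrays of 1 number in a line as a pair), OPM1-labelled cells had 6 higher and 15 lower and the difference 5 higher and 11 lower, while MM1S (2 and 11) and the untreated lines (5 and 10) kept their counts. For the fits without 1 array, with the replicate block or with other choices of probe sets, the shares of all genes called are not given. Nothing particular to the members is therefore read from their counts. Deviations of arrays with the same number correlated at 0.212 in MM1S and 0.209 in OPM1. Brightness limits the dim members, since a treated signal under the array median cannot be told from background.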

Other observations

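Outside the rule, UBE2T, the E2 of the Fanconi anaemia repair pathway, was called in both lines in opposite directions, at 0.39 in MM1S and −0.75 in OPM1-labelled cells, and UBE2L6, the E2 of ISG15, was at −0.09 in MM1S and at −1.08, called, in OPM1-labelled cells. UBE2D3-AS1, too dim for the test, read 9.27 and 7.45 on MM1S controls, 13.8 and 9.12 with Zalypsis, 26.6 and 25.2 on OPM1 controls and 86.3 and 70.8 with Zalypsis.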
